A study of Mus musculus with 9 samples.

Results

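The 36 genes described here encode the enzymes that build cholesterol and fatty acids, the regulators that set their transcription, and genes of cholesterol efflux linked to the liver X receptors. They were found by symbol among the 53924 named rows of each library, each had 1 row, and all 36 passed the filter on low counts that left 16634 tested genes. The level the filter asks for (0.491 CPM) was reached in all 9 libraries by 35 of them, while Ch25h reached it in every 3AP library and in none of the other 6. By role they are 18 sterol enzymes, 4 sterol regulators, 8 fatty acid enzymes and 6 genes linked to the liver X receptors. RNA of mouse cerebellum was sequenced in bulk in 9 libraries. The control group held 3 libraries of mice given saline. The 3AP group held 3 libraries of mice given 3-AP (3-acetylpyridine, a nicotinamide antagonist used to produce cerebellar ataxia), and the PLX3AP group held 3 libraries of mice given 3-AP after depletion of microglia with PLX3397 (an inhibitor of the CSF1 receptor, which microglia need to survive). No library of mice given PLX3397 without 3-AP was analysed here, so every comparison that involves PLX3397 is between groups that both received 3-AP, or between PLX3397 with 3-AP and saline. The sources used here give no strain, age, sex, dose or time, and do not say whether each library came from its own animal, so the p-values measure only the spread between these libraries, which may be technical.

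Cholesterol does not cross from the blood into the brain, and brain cells make their own, with oligodendrocytes using it for myelin and astrocytes supplying neurons. When sterol in the endoplasmic reticulum is low, the transcription factor SREBP2 (gene Srebf2) is released from its complex with INSIG proteins, is cleaved, and drives the genes of sterol synthesis, while SREBP1 (Srebf1) mainly drives those of fatty acid synthesis. When sterol is plentiful, oxysterols hold SREBPs back and activate the liver X receptors LXRα (Nr1h3) and LXRβ (Nr1h2), which induce Srebf1, the exporters Abca1 and Abcg1, and Mylip, whose product is a ubiquitin ligase that limits lipoprotein uptake. Ch25h makes 25-hydroxycholesterol, an oxysterol that acts on both arms and that macrophages produce in response to interferon.

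Stretches of DNA upstream of member genes are shown so that the binding motifs of these factors can be seen beside the expression values: a sterol enzyme with the motif that sterol-responsive promoters carry (Hmgcs1), a sterol enzyme with an E-box (Sc5d), and a gene of the other arm (Mylip). Each runs from 250 bases to 1 base before a RefSeq transcription start (build GRCm38.p6), 5′ to 3′ on the gene's own strand, and lies outside annotated exons. Capitals mark matches to TCACNCCAC (a sterol regulatory element), CCAAT (the box bound by NF-Y, which works with SREBPs; ATTGG is its reverse complement) and CACGTG (an E-box, which SREBP1 and other factors bind).
Hmgcs1, chr13:119690101-119690350, plus strand: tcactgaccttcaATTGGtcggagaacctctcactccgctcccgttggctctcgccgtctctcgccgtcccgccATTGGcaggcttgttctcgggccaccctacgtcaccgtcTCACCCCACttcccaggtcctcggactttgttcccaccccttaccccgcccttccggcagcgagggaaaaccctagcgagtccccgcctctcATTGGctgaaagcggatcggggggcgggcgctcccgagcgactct
Sc5d, chr9:42264301-42264550, minus strand: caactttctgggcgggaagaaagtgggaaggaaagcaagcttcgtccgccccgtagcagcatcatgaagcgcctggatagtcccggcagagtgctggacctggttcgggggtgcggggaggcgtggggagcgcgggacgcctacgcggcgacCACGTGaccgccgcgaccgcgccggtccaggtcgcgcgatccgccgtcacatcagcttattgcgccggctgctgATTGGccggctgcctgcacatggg
Mylip, chr13:45389492-45389741, plus strand: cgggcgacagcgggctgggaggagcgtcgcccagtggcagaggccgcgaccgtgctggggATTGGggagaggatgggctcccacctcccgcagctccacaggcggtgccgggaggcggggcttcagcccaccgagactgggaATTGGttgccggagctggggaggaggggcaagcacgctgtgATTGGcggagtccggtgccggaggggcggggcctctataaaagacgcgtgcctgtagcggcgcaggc
In Hmgcs1 the TCACNCCAC match stood at -137 to -129 from the start, and CCAAT boxes in reverse orientation began at -237, -176 and -45. In Sc5d the E-box stood at -98 to -93, with a reversed CCAAT box at -24 to -20. Mylip held 3 reversed CCAAT boxes, beginning at -190, -108 and -67, and neither of the other motifs.

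RefSeq windows from 250 bases before to 50 bases after a start were at hand for 28 of the 36 genes. Both strands were searched, a window was counted once per motif, and no 2 matches overlap in the stretches printed. CCAAT occurred in a window of 14 of 15 sterol enzymes (Acat2 was the exception), 3 of 3 regulators, 2 of 5 fatty acid enzymes (Fasn and Elovl5) and 1 of 5 genes linked to the liver X receptors (Mylip), against 37.4% of all 32851 windows. Some genes have several windows, so these shares per gene are not on quite the same footing as the share of all windows. TCACNCCAC occurred in 1 of 28 genes (Hmgcs1), against 1.24% of all windows, and CACGTG in 6 of 28, against 7.15%. A match describes letters in a window and is not a measured binding site.

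Libraries held 18452256 to 22358447 estimated counts, and no pair of libraries within a group agreed within counting noise (chi-square per degree of freedom 4.83 to 28.6). Expression is given as CPM, estimated counts scaled to the library total and by TMM factors, or as TPM, the authors' values per transcript length. Markers of cerebellar neurons were abundant in every library: 7 Purkinje cell markers summed to 7433 to 9081 CPM and 7 granule cell markers to 3460 to 4470 CPM. Markers of choroid plexus, a tissue beside the cerebellum, ranged from 189 to 5249 CPM over the 9 libraries and overlapped between groups. The label of microglia depletion was checked with 14 microglia and macrophage markers, which summed to 174 to 197 CPM in control, 367 to 451 CPM in 3AP and 91.5 to 150 CPM in PLX3AP libraries. In bulk tissue, fewer cells of a type and less RNA per cell cannot be told apart.

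Per length, the members spanned a wide range in control cerebellum. Scd2, the main brain stearoyl-CoA desaturase, stood highest at 682 ± 82.9 TPM (SD, n = 3), followed by Fads1 at 102 ± 0.974, Hmgcs1 at 87.4 ± 9.22 and Scd1 at 79.8 ± 4.90 TPM. Hmgcs1 and Scd1 did not differ beyond their spread. Among sterol enzymes, Hmgcs1, Fdps (72.4 ± 3.05 TPM) and Pmvk (57.4 ± 2.40 TPM) were the most abundant per length, and Hsd17b7 (7.57 ± 0.904) and Lss (9.09 ± 1.05 TPM) the least. Of the receptors, Nr1h2 stood at 64.4 ± 3.58 TPM and Nr1h3 at 9.50 ± 1.05 TPM. Ch25h was close to absent in control libraries at 0.503 ± 0.0709 TPM, from 6 to 9 counts per library.

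**Figure D1:**
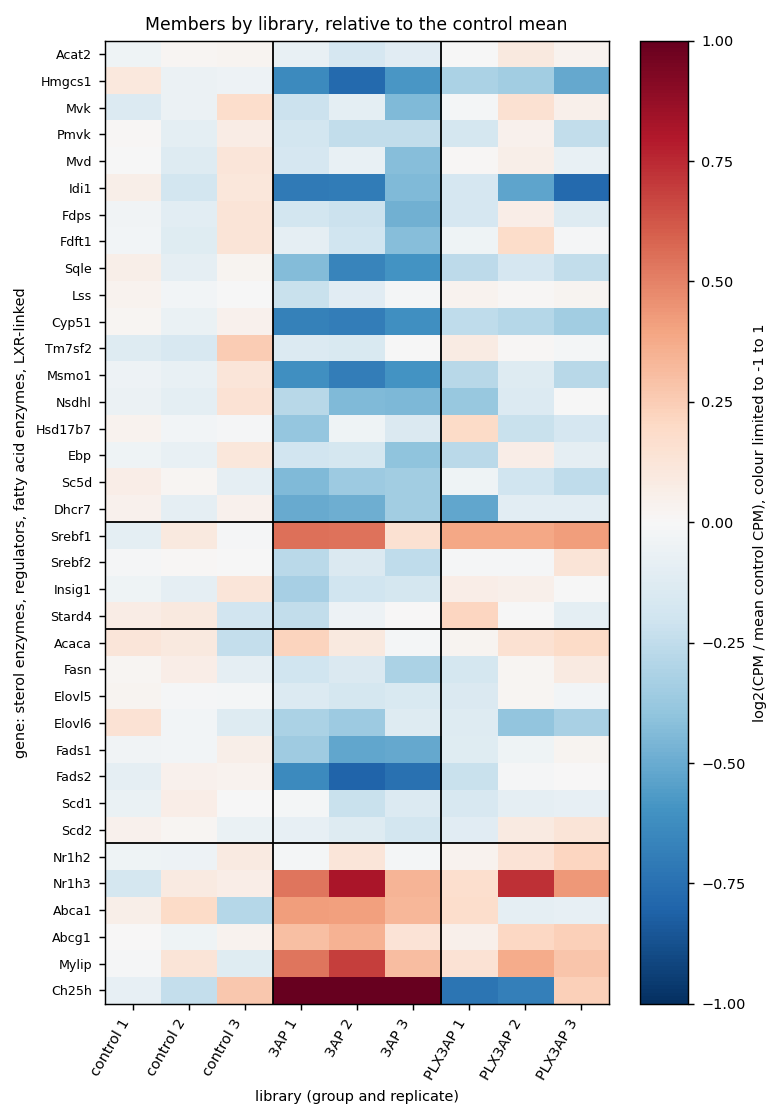
Each row is 1 of the 36 genes, grouped by role, and each column 1 library; colour is the log2 ratio of its CPM to the mean of the 3 control libraries, limited to -1 to 1, which the 3AP values of Ch25h exceed. Most sterol enzymes are below control in the 3AP columns and closer to it in the PLX3AP columns, and Ch25h is dark red in the 3AP columns.

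The first comparison, 3AP against control, addresses how the cerebellum's transcripts differ after the toxin. Of the 36 members 9 fell and 3 rose (edgeR, adjusted p under 0.05), and without Ch25h 2 of 35 rose. Over all tested genes 1.18% fell and 3.75% rose, and 4.93% were called either way. The members were chosen with earlier results of these data known, so shares set beside them describe the list and do not test it. The median log2 fold change was -0.22 over the members and 0.0012 over all tested genes. Sterol enzymes fell in 7 of 18 cases and rose in none, all 18 had a log2 fold change below 0, and their median was -0.27. In 13 of the 18 every 3AP library lay below every control library, an order that 11.0% of all tested genes showed. On TPM, 16 of the 18 were below 0 (Lss and Tm7sf2 were above) and 6 fell in a limma-trend fit. The TPM scale was shifted upward, with a median over all tested genes of 0.053 on log2(TPM + 1), so signs on TPM and on counts are not on the same footing. Without control replicate 3, 17 of the 18 were below 0 in the count fit.

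Hmgcs1 encodes the cytosolic HMG-CoA synthase, which feeds the mevalonate pathway. It measured 183, 164 and 164 CPM in control, 110, 99.2 and 114 CPM in 3AP and 136, 134 and 120 CPM in PLX3AP libraries. The 3 groups did not overlap, with control highest and 3AP lowest, and Hmgcs1 fell after 3-AP by 0.67 on the log2 scale (SE 0.08, edgeR adjusted p = 0.00036), a 1.59-fold difference. Of its annotated exonic bases 12.1% are shared with the antisense gene Gm48342, and no source used here gives the strandedness of the libraries. Idi1, the isomerase that makes the reactive isoprene unit, measured 57.6, 48.5 and 59.6 CPM in control, 33.8, 34.0 and 40.6 CPM in 3AP and 49.1, 38.3 and 32.2 CPM in PLX3AP libraries. The 3AP libraries lay below control, and PLX3AP libraries spread across the gap. Idi1 fell 1.53-fold (log2 fold change -0.61, SE 0.14, edgeR adjusted p = 0.031), but the call was lost without control replicate 1 or 3 or 3AP replicate 1 or 2 (adjusted p = 0.12 to 0.14 in edgeR).

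Sqle (chr15:59315077-59331192, GENCODE M21 on GRCm38), Cyp51 (chr5:4081145-4104746) and Msmo1 (chr8:64718139-64733792) act after squalene, where oxygen is added and methyl groups are removed. Sqle, squalene epoxidase, measured 42.7, 38.7 and 41.8 CPM in control, 30.4, 26.0 and 27.2 CPM in 3AP and 34.3, 36.5 and 34.6 CPM in PLX3AP libraries, and fell 1.47-fold after 3-AP (log2 fold change -0.56, SE 0.09, edgeR adjusted p = 0.0019). Cyp51, lanosterol demethylase, measured 66.9, 63.0 and 67.7 CPM in control, 41.1, 40.8 and 43.2 CPM in 3AP and 55.2, 54.1 and 51.7 CPM in PLX3AP libraries, and fell 1.58-fold (log2 fold change -0.66, SE 0.07, edgeR adjusted p = 0.00014). Msmo1, the C4 methylsterol oxidase, measured 45.6, 44.7 and 51.2 CPM in control, 30.8, 29.3 and 31.1 CPM in 3AP and 38.8, 43.1 and 39.0 CPM in PLX3AP libraries, and fell 1.55-fold (log2 fold change -0.63, SE 0.08, edgeR adjusted p = 0.00062). In each of these genes the 3 groups were separate and PLX3AP stood between control and 3AP, and leaving out any 1 library of the control or 3AP groups ended none of these falls or that of Hmgcs1.

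Of the enzymes of the last steps, Sc5d and Dhcr7 were called. Sc5d, sterol C5 desaturase, measured 91.2, 88.2 and 81.9 CPM in control, 64.0, 67.6 and 68.5 CPM in 3AP and 84.3, 76.0 and 72.9 CPM in PLX3AP libraries, and fell 1.31-fold (log2 fold change -0.38, SE 0.08, edgeR adjusted p = 0.011). Dhcr7, which makes cholesterol from 7-dehydrocholesterol, measured 29.7, 27.0 and 29.7 CPM in control, 20.3, 20.6 and 22.6 CPM in 3AP and 20.2, 26.7 and 26.8 CPM in PLX3AP libraries, and fell 1.36-fold (log2 fold change -0.45, SE 0.12, edgeR adjusted p = 0.046). Both genes had 3AP below control without overlap, while PLX3AP replicate 1 of Dhcr7 lay at the 3AP level. The Sc5d call was lost without control replicate 1 or 2 or 3AP replicate 1 (edgeR adjusted p = 0.074, 0.055 and 0.078) and on TPM (limma adjusted p = 0.14). The Dhcr7 call was lost without any 1 of the 6 libraries (edgeR adjusted p = 0.058 to 0.17).

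The 11 other sterol enzymes did not pass the test, with log2 fold changes between -0.39 and -0.10. Nsdhl, which removes the C4 carboxyl group, had the lowest of these values (-0.39, SE 0.13, edgeR adjusted p = 0.11), with 15.0 to 17.7 CPM in control and 11.8 to 13.3 CPM in 3AP libraries. Fdps, which makes farnesyl diphosphate, followed at -0.29 (edgeR adjusted p = 0.16), and 26.7% of its exonic bases are shared with Gm43738 on the same strand. The kinases and decarboxylase of the mevalonate steps, Mvk, Pmvk and Mvd, stood at -0.25, -0.22 and -0.22. Lss, which closes the sterol ring, stood at -0.11 on counts. The values of these 11 genes lay on the side of the 7 that fell, but none of them was called by edgeR.

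**Figure D2:**
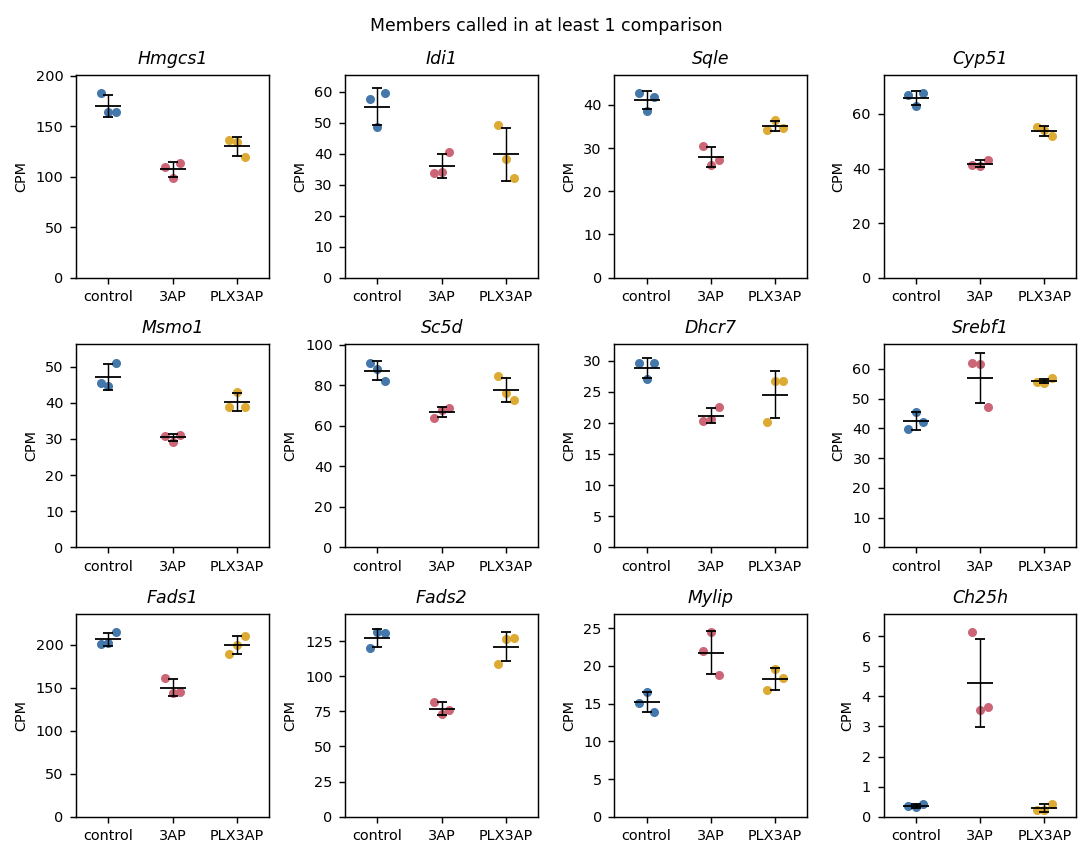
Each panel shows 1 member called in any comparison, with CPM on a vertical axis that starts at 0, 1 point per library and a line for the mean with its SD (n = 3). Hmgcs1, Sqle, Cyp51 and Msmo1 form 3 separate levels, Fads1 and Fads2 overlap between control and PLX3AP with 3AP below both, and Ch25h is above 3 CPM in the 3AP libraries alone.

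Among the regulators, Srebf1 rose and the other 3 did not pass the test. Srebf1 measured 39.6, 45.5 and 42.2 CPM in control, 62.1, 61.7 and 47.1 CPM in 3AP and 55.5, 55.4 and 56.8 CPM in PLX3AP libraries. Both 3-AP groups lay above control without overlap, and 3AP replicate 3 was well below the others of its group. Srebf1 was 1.34-fold higher after 3-AP (log2 fold change 0.43, SE 0.10, edgeR adjusted p = 0.032), and it did not pass without control replicate 1, 2 or 3 or 3AP replicate 1 or 2 (edgeR adjusted p = 0.056 to 0.16), in a fit of the 2 groups alone (0.056) and on TPM (limma adjusted p = 0.053).

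Srebf2 measured 140, 143 and 141 CPM in control, 118, 128 and 118 CPM in 3AP and 141, 140 and 154 CPM in PLX3AP libraries. Its 3AP libraries lay below both other groups without overlap, with a log2 fold change of -0.22 against control (SE 0.07, edgeR adjusted p = 0.097). Insig1, itself a target of SREBPs that anchors them in the endoplasmic reticulum, measured 74.5, 72.2 and 83.4 CPM in control, 60.9, 66.7 and 68.0 CPM in 3AP and 80.1, 79.6 and 76.4 CPM in PLX3AP libraries. It too was lowest in 3AP without overlap (-0.23, SE 0.08, edgeR adjusted p = 0.13). Stard4, a carrier that moves cholesterol between membranes, overlapped between groups at 46.3 to 63.4 CPM.

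Of the 8 fatty acid enzymes 2 fell after 3-AP, Fads1 (chr19:10182888-10196877, GENCODE M21 on GRCm38) and Fads2 (chr19:10062765-10101746), which encode the desaturases for polyunsaturated fatty acids. Fads2 measured 120, 131 and 131 CPM in control, 81.8, 73.1 and 76.0 CPM in 3AP and 109, 126 and 127 CPM in PLX3AP libraries. It fell 1.65-fold (log2 fold change -0.73, SE 0.08, edgeR adjusted p = 0.00022), the lowest log2 fold change of the 36 members in this comparison. Fads1 measured 201, 203 and 215 CPM in control, 161, 144 and 145 CPM in 3AP and 189, 200 and 210 CPM in PLX3AP libraries, and fell 1.38-fold (log2 fold change -0.46, SE 0.07, edgeR adjusted p = 0.0023). For both genes the 3AP libraries were lowest, control and PLX3AP overlapped, and no left-out library ended the call.

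The other 6 fatty acid enzymes were not called, and the list's median was -0.19. Fasn, the fatty acid synthase, was below control in every 3AP library (173 to 192 against 148 to 166 CPM) with a log2 fold change of -0.22 (edgeR adjusted p = 0.19). Elovl5 and Elovl6, which lengthen fatty acids, stood at -0.15 and -0.27, and Acaca, which makes malonyl-CoA, at 0.10. The stearoyl-CoA desaturases Scd1 and Scd2 stood at -0.12 and -0.13. Their sequences are close, so reads could be divided between them and their values are less certain than the others.

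All 6 genes linked to the liver X receptors had log2 fold changes above 0 after 3-AP, with a median of 0.45, but only Ch25h and Mylip were called by edgeR. In 5 of the 6 (all but Nr1h2) the 3AP libraries lay above control without overlap, an order that 13.6% of all tested genes showed. Ch25h is among the 5 and enters the median, while the other genes ranged from 0.03 (Nr1h2) to 0.58 (Nr1h3). Ch25h (chr19:34473778-34475164, GENCODE M21 on GRCm38) measured 0.344, 0.308 and 0.439 CPM in control, 6.14, 3.56 and 3.64 CPM in 3AP and 0.220, 0.226 and 0.430 CPM in PLX3AP libraries. Every 3AP library lay far above the other 6, with 73 to 125 estimated counts against 4 to 9. Of its exonic bases 11.5% are shared with Gm26902 on the opposite strand. Ch25h rose 12-fold (log2 fold change 3.59, SE 0.37, edgeR adjusted p = 9.4e-05). It passed the filter only through the group in which it is high, so neither its call nor its order is support for the list.

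The microglia and macrophage markers were set beside Ch25h. Of 14 such markers 9 rose after 3-AP (2 of the 14 had a log2 fold change below 0) and 13 fell in PLX3AP against 3AP, and their summed level is given above. In PLX3AP against control all 14 were below 0 and 4 fell, while Ch25h overlapped control. Over all tested genes 3.75% rose after 3-AP, 3.16% fell in PLX3AP against 3AP and 0.0842% fell in PLX3AP against control. Of 10 blood leukocyte markers 6 were tested, and 4 of them rose after 3-AP. Those 10 summed to 1.13 to 4.0 CPM in control, 9.70 to 24.1 CPM in 3AP and 1.45 to 2.39 CPM in PLX3AP libraries. The filter asks for 0.491 CPM in a single gene, so the leukocyte markers tested may have passed it mainly through the 3AP libraries. Their calls are therefore given without weight. The part of the microglia, macrophage and leukocyte markers in the Ch25h result was not tested.

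Mylip measured 15.0, 16.6 and 13.9 CPM in control, 22.0, 24.5 and 18.8 CPM in 3AP and 16.8, 19.6 and 18.4 CPM in PLX3AP libraries. It rose 1.43-fold (log2 fold change 0.52, SE 0.12, edgeR adjusted p = 0.026). The call was lost without control replicate 1 or 3 or 3AP replicate 1 or 2 (edgeR adjusted p = 0.092 to 0.12) and on TPM (limma adjusted p = 0.078). Its 3AP libraries stood above control, while 3AP and PLX3AP overlapped.

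The receptors and exporters were not called in the edgeR fit of all 9 libraries. Nr1h3 measured 7.86, 9.45 and 9.26 CPM in control, 12.9, 15.6 and 11.2 CPM in 3AP and 9.94, 14.7 and 11.9 CPM in PLX3AP libraries (0.58 after 3-AP on the log2 scale, SE 0.17, edgeR adjusted p = 0.077). Abca1 measured 51.1, 56.0 and 40.3 CPM in control, 65.6, 65.4 and 61.9 CPM in 3AP and 55.6, 46.2 and 46.3 CPM in PLX3AP libraries (0.39, SE 0.11, edgeR adjusted p = 0.078). Both had their 3AP libraries above control, and DESeq2 called both (adjusted p = 0.041 and 0.039). On TPM Nr1h3 was called (limma adjusted p = 0.048) and Abca1 was not. Abcg1 stood at 95.2 to 100 CPM in control and 107 to 124 CPM in 3AP libraries (0.26, edgeR adjusted p = 0.086). With 3AP replicate 3 left out, but with no other library left out, edgeR called Nr1h3 and Abcg1 (adjusted p = 0.045 and 0.038). Nr1h2 measured 61.7, 61.5 and 67.6 CPM in control, 62.8, 69.1 and 62.7 CPM in 3AP and 65.3, 70.0 and 74.0 CPM in PLX3AP libraries. The groups overlapped for Nr1h2, with a log2 fold change of 0.03.

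**Figure D3:**
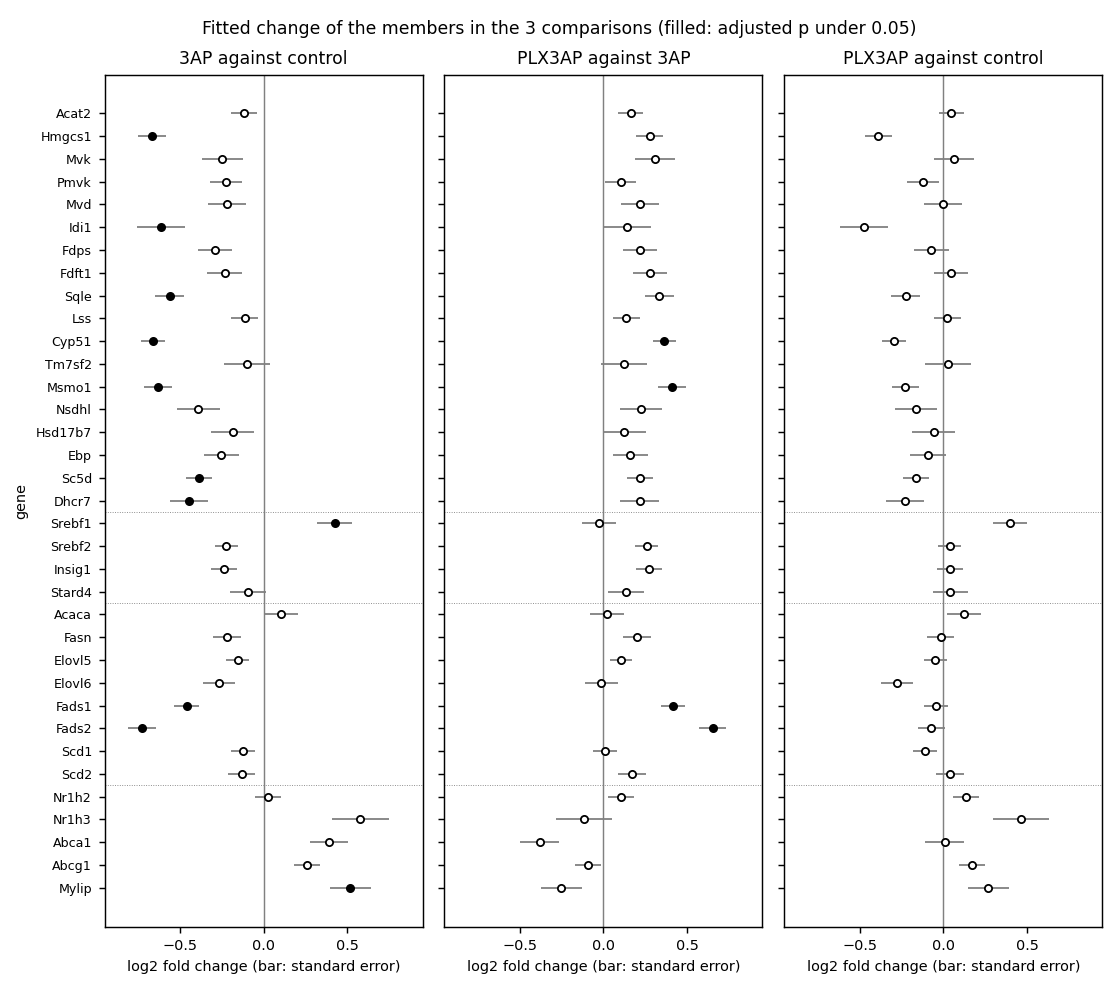
Log2 fold change with its standard error (horizontal axis) of the members except Ch25h, whose values of 3.59 and -3.89 lie outside the axes, in the 3 comparisons, from the edgeR fit of all 9 libraries; filled points passed an adjusted p under 0.05. The 18 sterol enzymes lie left of 0 in 3AP against control and right of 0 in PLX3AP against 3AP, and no point is filled in PLX3AP against control.

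The second comparison, PLX3AP against 3AP, addresses how these transcripts differ when microglia were depleted before 3-AP. It uses the same 3AP libraries as the first, so a 3AP library that is low by itself moves both comparisons in opposite directions, and their values are set side by side without a test of how they relate. Of the 36 members 4 rose (Cyp51, Msmo1, Fads1 and Fads2) and 1 fell (Ch25h), where 0.577% of all tested genes rose, 3.16% fell and 3.73% were called either way. Without Ch25h, 0 of 35 fell. The members' median log2 fold change was 0.16, against -0.0083 over all tested genes. All 18 sterol enzymes were above 0 with a median of 0.22, and in 11 of them every PLX3AP library lay above every 3AP library, an order that 7.66% of all tested genes showed. Without PLX3AP replicate 1, 16 of the 18 were above 0, with Idi1 and Hsd17b7 below.

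Fads2 had the largest of the 4 rises, 1.57-fold (log2 fold change 0.65, SE 0.08, edgeR adjusted p = 0.00042), beside its fall by 0.73 in 3AP against control. Fads1 rose 1.33-fold (log2 fold change 0.42, SE 0.07, edgeR adjusted p = 0.0048), beside its fall by 0.46. Both calls held without any 1 library of the 3AP or PLX3AP groups. Msmo1 rose 1.33-fold (log2 fold change 0.41, SE 0.08, edgeR adjusted p = 0.014), and the call was lost without 3AP replicate 1 or 2 or PLX3AP replicate 2 (edgeR adjusted p = 0.066, 0.070 and 0.094). Cyp51 rose 1.29-fold (log2 fold change 0.36, SE 0.07, edgeR adjusted p = 0.0092), and the call was lost without 3AP replicate 1 or 2 (edgeR adjusted p = 0.065 and 0.052) and on TPM (limma adjusted p = 0.077). The pair of desaturase genes was thus called at every left-out library and the pair of sterol enzymes was not.

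Ch25h fell 14.9-fold in PLX3AP against 3AP (log2 fold change -3.89, SE 0.38, edgeR adjusted p = 6e-05), a call that held without any 1 library. Here too Ch25h was tested only through the 3AP libraries, in which it is high, so this call is no support for the list. Sqle (0.33, SE 0.09, edgeR adjusted p = 0.055), Hmgcs1 (0.28, SE 0.08, edgeR adjusted p = 0.10), Srebf2 (0.26, SE 0.07, edgeR adjusted p = 0.064) and Insig1 (0.27, SE 0.08, edgeR adjusted p = 0.093) had every PLX3AP library above every 3AP library without passing the test. DESeq2 called these 4 higher (adjusted p = 0.026, 0.041, 0.017 and 0.047). Abca1 had every PLX3AP library below every 3AP library (-0.38, SE 0.11, edgeR adjusted p = 0.11). Srebf1 stood at -0.03 (SE 0.10), with PLX3AP libraries inside the range of the 3AP libraries. Nr1h3 and Mylip, at -0.12 and -0.25, overlapped between these groups.

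In the third comparison, PLX3AP against control, edgeR called no member in either direction, where it called 0.120% of all tested genes, 0.0361% higher and 0.0842% lower. At an unadjusted p under 0.05 it counted 9 of the 36 members, against 9.35% of all tested genes, and DESeq2 called 2 lower, Hmgcs1 (adjusted p = 0.0045) and Cyp51 (adjusted p = 0.047). The members' median log2 fold change was -0.03 and that of the sterol enzymes -0.11, with 13 of 18 below 0 (a median of -0.05 and 11 of 18 on TPM). Over all tested genes the median was 0.0014 on counts and 0.044 on log2(TPM + 1). In 5 sterol enzymes (Hmgcs1, Sqle, Cyp51, Msmo1 and Dhcr7) every PLX3AP library lay below every control library, an order that 6.42% of all tested genes showed. Their log2 fold changes were -0.39, -0.23, -0.30, -0.23 and -0.23. Without PLX3AP replicate 1, edgeR called Hmgcs1 (adjusted p = 0.045) and Idi1 (adjusted p = 0.042) lower.

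The members differed in where PLX3AP stood between control and 3AP. Fads1 and Fads2 overlapped control, with log2 fold changes of -0.04 (SE 0.07, edgeR adjusted p = 0.88) and -0.07 (SE 0.08, edgeR adjusted p = 0.80). Ch25h overlapped control as well (-0.31, SE 0.46, edgeR adjusted p = 0.86). Hmgcs1 stood apart from both groups, at -0.39 against control (SE 0.08, edgeR adjusted p = 0.13). Srebf1 stayed on the 3AP side, at 0.40 against control (SE 0.10, edgeR adjusted p = 0.27), with every PLX3AP library above every control library, as in 7.86% of all tested genes. The same order against control held for Nr1h3, Mylip and Abcg1, at 0.46, 0.27 and 0.17 (edgeR adjusted p = 0.43, 0.53 and 0.53). Nr1h2 and Abca1 overlapped control, at 0.13 and 0.01. The differences between members in this position were not tested.

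Summed over the 18 sterol enzymes, expression was 833, 779 and 840 CPM in control, 615, 602 and 608 CPM in 3AP and 724, 745 and 686 CPM in PLX3AP libraries. The 3 groups did not overlap. The 6 genes linked to the liver X receptors summed to 234, 239 and 232 CPM in control, 290, 302 and 266 CPM in 3AP and 249, 264 and 267 CPM in PLX3AP libraries, so that both 3-AP groups lay above control and overlapped each other in 1 library. The fatty acid enzymes, a sum that Scd2 dominates, gave 2655 to 2805, 2360 to 2521 and 2526 to 2901 CPM.

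**Figure D4:**
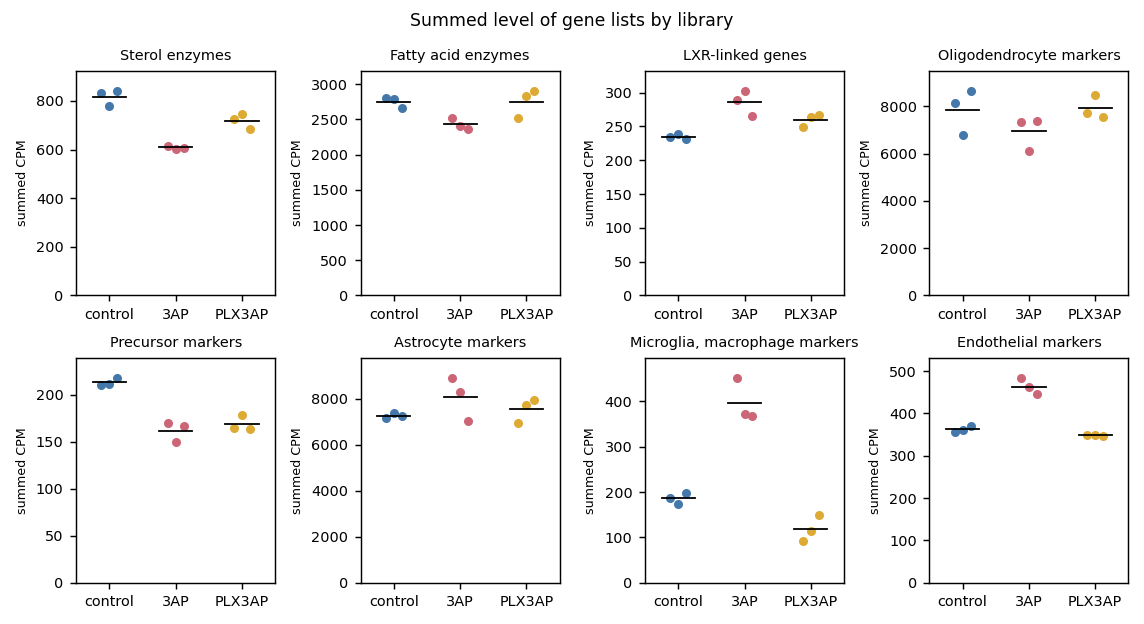
Summed CPM of gene groups by library, 1 point per library, for the sterol enzymes, the fatty acid enzymes, the genes linked to the liver X receptors (LXR), and markers of oligodendrocytes, their precursors, astrocytes, microglia and macrophages, and endothelium, with a line for the mean (n = 3). The sterol enzyme sum forms 3 separate levels, while the oligodendrocyte marker sum in control overlaps both other groups, with PLX3AP above 3AP, and the microglia and macrophage marker sum is highest in 3AP and lowest in PLX3AP.

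Markers of the cells that make most brain sterol were set beside these sums. Of 12 oligodendrocyte markers 2 fell after 3-AP (Opalin and Ugt8a) and 1 rose in PLX3AP against 3AP (Opalin), and their sum was 6791 to 8643 CPM in control, 6088 to 7391 CPM in 3AP and 7549 to 8457 CPM in PLX3AP libraries. Control overlapped both other groups, but every PLX3AP library lay above every 3AP library, as for the sterol enzyme sum. After 3-AP 10 of the 12 oligodendrocyte markers were below 0 (median log2 fold change -0.22, and -0.27 for the sterol enzymes), and in PLX3AP against 3AP 10 of the 12 were above 0 (median 0.20, and 0.22 for the sterol enzymes). Of 10 markers of oligodendrocyte precursors 3 fell after 3-AP (Gpr17, Vcan and Cacng4), Cacng4 rose in PLX3AP against 3AP, and Gpr17 and Neu4 fell in PLX3AP against control. The precursor sum was 211 to 217 CPM in control, 149 to 170 CPM in 3AP and 163 to 179 CPM in PLX3AP libraries, so unlike the sterol enzyme sum it overlapped between the 3AP and PLX3AP groups. Of 12 astrocyte and Bergmann glia markers Gfap rose and Aqp4, Hopx, Fabp7 and Slc7a10 fell after 3-AP, with overlapping sums (7153 to 7398, 7036 to 8897 and 6953 to 7934 CPM).

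Granule cell markers fell in 1 of 7 cases after 3-AP (Calb2) and all 7 were below 0, with sums of 4225 to 4470 CPM in control, 3460 to 3896 CPM in 3AP and 4128 to 4330 CPM in PLX3AP libraries. That sum, like the sterol enzyme sum, was lowest in 3AP without overlap. Purkinje cell markers were called in none of the 3 comparisons. Endothelial markers rose in 6 of 10 cases after 3-AP and fell in 1 (Itm2a), and in PLX3AP against 3AP 4 fell and 1 rose. Beside all these marker counts, 3.75% of all tested genes rose and 1.18% fell after 3-AP. In PLX3AP against 3AP 0.577% rose and 3.16% fell, and in PLX3AP against control 0.0842% fell. The part of any of these cell types in the sterol and fatty acid results was not tested.

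Few of the other genes of these pathways were called. Of 25 other sterol genes 23 were tested, and their median log2 fold change after 3-AP was 0.03. Lcat, which esterifies cholesterol on lipoproteins, measured 56.0 ± 6.11 CPM in control and 41.2 ± 3.12 CPM in 3AP libraries and fell by 0.45 on the log2 scale (SE 0.10, edgeR adjusted p = 0.021), but not without control replicate 2 or 3 or 3AP replicate 1 or 2 (edgeR adjusted p = 0.054 to 0.12) nor on TPM (limma adjusted p = 0.10). Apoe, the main brain apolipoprotein gene, stood at -0.01 and was not called.

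In PLX3AP against 3AP, Lcat rose (log2 fold change 0.54, SE 0.10, edgeR adjusted p = 0.0070, and 0.057 without 3AP replicate 1). Of 25 other fatty acid genes 24 were tested (all but Scd4), and 1 rose after 3-AP. This was Acacb, the mitochondrial acetyl-CoA carboxylase, at 7.70 ± 2.12 CPM in control and 14.4 ± 2.50 CPM in 3AP libraries (edgeR adjusted p = 0.016, log2 fold change 0.90, SE 0.19). The Acacb call was lost without control replicate 1 or 2 or 3AP replicate 2 (edgeR adjusted p = 0.050 to 0.079), and on TPM the log2 fold change was 0.27 (limma adjusted p = 0.67). Acly, which makes cytosolic acetyl-CoA, stood at 0.03. In PLX3AP against control edgeR called none of these other genes, and 1 of the 23 other sterol genes and 3 of the 24 other fatty acid genes had an unadjusted p under 0.05, where 9.35% of all tested genes did.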

How the data were processed

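The submitters' processing notes name mm10 as the authors' build and RSEM, StringTie, HISAT2 and fastp as their tools. The sources used here do not give versions, roles, annotation, filters or strandedness. The authors deposited a file of expected counts (reads estimated per gene, not normalised) and a file of TPM (per transcript length and library total) for each of 9 libraries. Rows without a gene name (1884 of 55808, with 0.526 to 0.660% of counts) were left out.

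The deposited expected counts were rounded. They were fitted in edgeR 4.0.16 (R 4.3.3) after filterByExpr and TMM scaling (factors 0.986 to 1.02), by a robust quasi-likelihood fit with 1 term per group on all 9 libraries. Two-sided p-values were adjusted over 16634 genes (Benjamini-Hochberg), and a gene was called where this value was under 0.05. Standard errors are log2 fold changes over the square root of F. Fold changes come from the fit and CPM from TMM-scaled libraries. Simulated data, with a spread set from all 9 libraries without regard to group, were used to test the fit. Of planted 1.5-fold changes it recovered 28.4% in 3AP against control, 43.3% in PLX3AP against 3AP and 31.3% in PLX3AP against control. False calls were 12 of 125, 6 of 137 and 8 of 125. A difference of this size can therefore go uncalled. Alternatives were DESeq2 1.42.0, RLE scaling, no filter, only the 2 groups compared, a replicate block, each replicate left out, and limma 3.58.1 (limma-trend) on the authors' TPM as log2(TPM + 1) or log2(TPM + 0.1). For the other pathway genes these were added after seeing the data.

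The members and the lists were chosen with earlier results of these data known. All 36 members may be named. Those called in any comparison, and Srebf1, Srebf2, Insig1, Nr1h2, Nr1h3 and Abca1, are given in every library. Of the other pathway genes, those called and Acly and Apoe are named, and some are not reported here. Exon overlaps are from GENCODE M21 (GRCm38) and upstream sequences from RefSeq (GRCm38.p6).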

Additional observations from a re-analysis of the deposited data

How the results depend on the processing

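Members rising in 3AP against control numbered 3, and 5 with DESeq2 or with no filter on low counts (Nr1h3 and Abca1 were added), and 1 to 5 with 1 library left out. Members falling numbered 9, and 6 to 8 with 1 library left out. In PLX3AP against 3AP, 4 members rose, and 8 with DESeq2 and 2 to 4 with 1 library left out. In that comparison 1 fell, and 2 with no filter, with only the 2 groups fitted, and 1 to 2 with 1 library left out (the added gene was Abca1). In PLX3AP against control 0 fell, and 2 with DESeq2, 1 with no filter (Hmgcs1) and 0 to 2 with 1 library left out. No called member changed direction under any alternative run. RLE scaling ended no member's call. Over all genes, falls in 3AP against control numbered 197, and 301 with DESeq2, 121 with the replicate block, and 72 and 71 on TPM with a pseudocount of 1 and 0.1.

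Replicate numbers did not pair the libraries: deviations of same-numbered libraries correlated at -0.25 to 0.12, and 0 of 9 libraries correlated best with their own number. With the number as a replicate block, 2 members rose and 7 fell in 3AP against control (Idi1, Dhcr7 and Srebf1 were lost, edgeR adjusted p = 0.057, 0.076 and 0.065), 4 rose and 1 fell in PLX3AP against 3AP, and 0 were called in PLX3AP against control. With 3 libraries per group, Nsdhl (-0.39, SE 0.13) and Abcg1 (0.26, SE 0.08) were not called in 3AP against control in the fit of all 9 libraries. Sc5d, at -0.38 with a smaller SE (0.08) than Nsdhl, was called, so the size of a difference alone did not decide a call.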

Other observations

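For a few sterol enzymes the authors' TPM and the counts gave different pictures. Lss measured 31.5, 30.2 and 30.8 CPM in control and 31.6, 31.0 and 31.4 CPM in PLX3AP libraries, but 10.1, 9.17 and 8.00 TPM in control and 10.8, 13.8 and 13.8 TPM in PLX3AP libraries. The log2 ratio of the PLX3AP and control means was 0.02 on CPM and 0.49 on TPM, so that the groups overlapped on 1 scale and not on the other. For 3AP against control the Lss ratio was -0.11 on CPM and 0.12 on TPM. Of the exonic bases of Lss 3.53% are shared with other annotated genes. Tm7sf2, which shares 12.1% with Vps51 on the same strand, stood at 15.0, 15.7 and 16.8 TPM as the means of control, 3AP and PLX3AP, and edgeR gave it log2 fold changes of -0.10, 0.12 and 0.03 in the 3 comparisons on counts.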
